A study of Mus musculus with 6 samples.

Results

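Cytosolic ribosomal proteins build the small and large subunits of the ribosome that translates nuclear mRNA, and a cell needs nearly the whole set in matched amounts. Most of their mRNAs begin at a C followed by an unbroken run of pyrimidines, the 5′ terminal oligopyrimidine (TOP) motif, through which growth signals of the mTOR pathway govern their translation. They are among the most abundant mRNAs of resting lymphocytes, so their share of a cell's reads is a familiar difference between blood and tissue cell types in single-cell data.

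The genes were taken by symbol: rows of the deposited table with a Rps or Rpl symbol of the standard form, together with Rpsa, Rplp0, Rplp1 and Rplp2, without pseudogene (-ps) rows and with at least 1000 unique molecular identifiers (UMIs, which count captured mRNA molecules) in all. Of 55538 features, 90 symbols matched and 84 passed the limit. They were 31 small-subunit genes, 43 large-subunit genes, 3 genes of the ribosomal stalk and 7 paralogs or retrocopies outside the standard set of 77. Just inside the limit were Rps12l1 with 1959 UMIs and Rpl7l1 with 2660 UMIs. Just outside were Rps4l with 673, Rpl6l with 597 and Rpl32l with 443, and Rpl39l, Rpl3l and Rpl10l had 56, 9 and 0 UMIs. In the GENCODE vM21 annotation of GRCm38 the 84 genes lay on 19 chromosomes, 15 of them on chromosome 7 and 4 on the X chromosome (Rps4x, Rpl10, Rpl36a, Rpl39). Rps3a2, Rps3a3 and Rps12l1 were annotated there as processed pseudogenes although their symbols pass the rule.

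The cells came from the peritoneal cavity of C57BL/6 mice, 8 to 12 weeks old, that were either wild type (MerTK +/+) or lacked the efferocytosis receptor MerTK (MerTK -/-) in every cell. Cells that adhered to plastic within 1 hour received a media change or were cultured for 2 hours or 6 hours with apoptotic cells (ACs), which were UV-irradiated human Jurkat T cells. Each of the 6 libraries held the pooled cells of 3 mice of 1 genotype and 1 treatment, so animals cannot be separated. The 6 libraries are numbered in the cell barcodes, and no label ties a number to a genotype or a treatment, so no comparison of genotypes or treatments was made. Library numbers below are names without an order.

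The table held 7760 barcodes, of which 7665 passed the limits on genes, complexity and mitochondrial UMIs used here, and each library had between 4234786 and 10287079 UMIs. Across libraries, 28 barcode sequences occurred more than once. B cells (2948 cells) were gated by at least 4 UMIs of Cd79a and Cd79b, T/NK cells (467) by at least 2 UMIs of Cd3d, Cd3e and Nkg7, and macrophages (2773) by at least 2 UMIs of Csf1r, Adgre1 and Fcer1g with at most 2 of Cd79a and Cd79b. The samples are labelled as peritoneal macrophages, and the gated B cells outnumbered the macrophages. No gate used a ribosomal protein gene. Markers outside the gates bore out the labels of 2 classes: 6 of 6 B cell markers were seen in at least 10% of B cells and 7 of 7 macrophage markers in at least 10% of macrophages. Of the T/NK class, 6 of 6 T cell markers reached that share and 0 of 6 NK markers did, so the class is in the main T cells. It is still called T/NK by its gate, and library 6 held 18 of its cells. Macrophage markers were not at 0 in B cells: their summed level was 102 to 595 CPM by library, against 17881 to 22073 CPM in macrophages. B cell markers summed to 90.8 to 150 CPM in macrophages, and T cell markers to 110 to 224 CPM in B cells. Pooled, Cd37 gave 101 of the 128 CPM in macrophages, and Cd2 gave 143 of the 186 CPM in B cells. Cd2 was seen in 46.8% of B cells and 40.9% of T/NK cells, and Cd37 also in 36.2% of T/NK cells. In B cells Lck had 27.6 CPM, and Cd3g, Lat, Trbc2 and Cd28 had 1.19 to 7.30 CPM. The 2 sums are therefore no measure of foreign cells alone. The part of foreign signal in the values was not tested. With 1 library for each genotype and treatment and no map of the numbers, there are no replicates of a group, so no p-value is given. Intervals are exact 95% intervals and cover counting error only.

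Library 6 stood apart from the other numbers in every class. It had the lowest median depth, 3866.5 UMIs per B cell, 1594 per T/NK cell and 2861 per macrophage, and it had the lowest ribosomal protein share in all 3 classes. The class shares, their ratios and the counts of genes past the limit are therefore given with and without it, and ratios of single genes with their range over libraries or their levels by library where the text turns on them.

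To show how the genes with the largest and the smallest differences between cell types begin, 30 bases of RefSeq sequence (GRCm38.p6) around each annotated start are printed, 12 bases before it and 18 from it. Capitals mark a C followed by at least 4 C or T that begins within 5 bases of the start, the search used here for a TOP motif, on the strand of the gene. The first 4 genes have the highest ratios of B cells to macrophages among those with a motif, so Rps3, above Rps27 but without a motif, is left out. The last 5 are among the lowest in that comparison or in T/NK cells over macrophages, with or without a motif. Rps12, also low in T/NK cells over macrophages, is not printed, and its run of 11 pyrimidines begins beyond the 5 bases searched. The printed genes therefore cannot show how common the motif is at either end.
Rpl18, chr7:45718059-45718088, plus strand: gtctcgcaggccgCTCTTTCCCCgcccact
Rpl14, chr9:120571505-120571534, plus strand: cgggccctCTCTCTTCTCgctgagcgccgc
Rpl13a, chr7:45128728-45128757, minus strand: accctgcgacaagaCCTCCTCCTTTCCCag
Rps27, chr3:90213631-90213660, minus strand: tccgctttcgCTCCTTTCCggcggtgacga
Rps27l, chr9:66946074-66946103, plus strand: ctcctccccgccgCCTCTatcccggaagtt
Rpl7l1, chr17:46782639-46782668, minus strand: aggctgcgcaagcgcagtagctgaagcacc
Rpl10, chrX:74270804-74270833, plus strand: gttacagtggaagataggccgcctatataa
Rpl41, chr10:128549151-128549180, minus strand: acgggccggctcggaagtgacgacaccgag
Rps25, chr9:44407702-44407731, plus strand: ttccgacatcttagcgaggctgctgtggtc
Rpl18, Rpl14, Rpl13a and Rps27 carry runs of 9 to 14 pyrimidines at the start. Rps27l has a run of 5 at 1 of its 2 listed starts, and the last 4 genes have none in this window.

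Of the 84 genes, 61 had a promoter entry, and 29 of these (47.5%) held the motif, against 5718 of 27025 genes in all (21.2%). The median log2 ratio of B cells over macrophages was 1.57 among the 29 genes with the motif and 1.39 among the 32 without it, with ranges of -0.28 to 2.04 and 0.23 to 1.92. For T/NK cells over macrophages the medians were 1.77 and 1.60. The ranges overlap nearly throughout, and Rps3, without the motif at its listed start, was among the 5 highest genes in both comparisons. An annotated start can lie some bases away from the one used in these cells, and no match says only that these letters are not in this window.

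Ribosomal protein mRNAs made up 25.3% of all UMIs in the table. In the pooled cells they were 33.2% of the UMIs of B cells (33.19% to 33.23%), 36.5% of those of T/NK cells (36.43% to 36.58%) and 12.1% of those of macrophages (12.11% to 12.15%). By library number, 1 to 6, the share in B cells was 33.9%, 31.4%, 33.2%, 36.6%, 33.4% and 27.8%. T/NK cells had 34.6%, 34.2%, 39.1%, 38.2%, 34.9% and 30.8%. The macrophages had 14.2%, 12.9%, 10.8%, 11.7%, 10.2% and 9.12%. The lowest lymphocyte value, in library 6, lay above the highest macrophage value, in library 1, so the classes did not overlap over libraries. Without library 6 the shares were 33.6%, 36.7% and 12.5%.

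**Figure D1:**
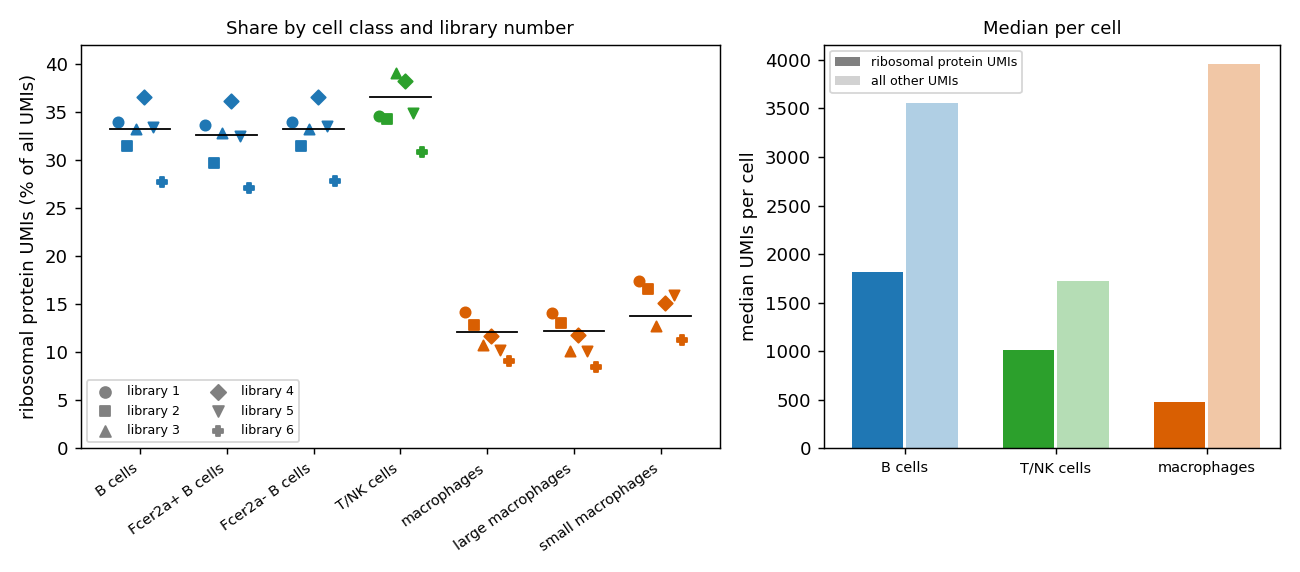
Left: percent of UMIs from the 84 ribosomal protein genes by cell class, with 1 symbol per library number and a black line for the value pooled over libraries. Right: median number of ribosomal protein UMIs (dark) and of all other UMIs (pale) per cell; the B cell and T/NK classes lie at 27.1% to 39.1%, and the macrophage classes at 8.51% to 17.4%, and the pooled macrophages have fewer ribosomal protein UMIs per cell than B cells or T/NK cells and more other UMIs.

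Single cells separated almost as well as libraries did. The median share per cell was 33.4% in B cells (10th to 90th percentile 25.3% to 40.7%), 37.1% in T/NK cells (26.3% to 44.6%) and 10.7% in macrophages (5.68% to 17.96%). Of 2773 macrophages, 25 (0.902%) reached the 10th percentile of the B cells, and 47 of 2948 B cells (1.59%) lay at or under the 90th percentile of the macrophages. Between B cells and macrophages the medians differed most in the ribosomal protein UMIs, and between T/NK cells and macrophages in both kinds of UMI. The median macrophage had 475 of them and 3958 other UMIs, the median B cell 1815.5 and 3550.5, and the median T/NK cell 1011 and 1728. T/NK cells were thus the shallowest class, with a median of 2742 UMIs against 5416 in B cells and 4426 in macrophages, and still had more ribosomal protein UMIs per cell than macrophages. Within a library the share bore little relation to a B cell's depth (Spearman's rho over cells -0.12 to 0.11 by library) and was somewhat higher in deeper macrophages (0.14 to 0.27) and deeper T/NK cells (0.17 to 0.39). These correlations share the UMI total between both axes and are descriptions only. After every cell had been thinned to 1500 UMIs before gating, 1164 B cells, 307 T/NK cells and 2005 macrophages passed. Their shares were 33.8%, 35.1% and 11.5%. Thinning at random leaves a cell's expected share unchanged, so these values cannot show an effect of depth on the share.

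B cells had 2.74 times the ribosomal protein share of macrophages, a log2 ratio of 1.45 (1.45 to 1.46). The ratio was positive in 6 of 6 library numbers, between 1.25 and 1.71, and was 1.43 without library 6. Of the 84 genes, 82 were at least 1.5-fold higher in B cells and 0 were at least 1.5-fold lower on log2(CPM + 1). Among the 9394 features with a mean of at least 5 CPM, 33.9% were higher by that rule and 26.8% lower. The median of the genes was 1.44, against 0.14 over all these features. In 74 genes every library's B cells were above every library's macrophages, which held for 23.1% of features. Here and below, such shares cover features down to a mean of 5 CPM and were not matched to the members in abundance. Removing library 6 left 81 genes past the limit.

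The subunits moved nearly alike. In B cells over macrophages the median log2 ratio was 1.42 among the 31 small-subunit genes and 1.56 among the 43 large-subunit genes, and all 74 were past the 1.5-fold limit. Summed over genes, the small subunit took 15.4% of B cell UMIs and 5.69% of macrophage UMIs, and the large subunit 15.5% and 5.37%. The 3 stalk genes, whose proteins recruit the translation factors, were less far apart at 1.92% and 0.899%, a log2 ratio of 1.09 (1.08 to 1.10). The stalk base Rplp0 had a log2 ratio of 1.65 (1.63 to 1.67), and its partners Rplp1 and Rplp2 had 0.77 (0.76 to 0.79) and 1.01 (0.99 to 1.03).

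Rpl18 (ENSMUSG00000059070.16, chr7:45715457-45720836), a large-subunit protein, had in B cells of libraries 1 to 6 levels of 4714, 4464, 4212, 4865, 4053 and 2645 CPM. In macrophages it had 1395, 1254, 1021, 969.9, 719.6 and 470.2 CPM. The 2 sets did not overlap, and the pooled log2 ratio of 2.04 (2.01 to 2.06) was the highest of the 84. Rpl14 followed at 1.99 (1.96 to 2.02), Rpl13a at 1.98 (1.95 to 2.01), Rps3 at 1.92 (1.89 to 1.94) and Rps27 at 1.91 (1.89 to 1.93). RPL13A is also known as part of a complex that silences inflammatory mRNAs in macrophages, and RPS3 lies at the mRNA entry channel. The lowest levels of Rpl18, Rpl13a and Rps3 in both classes were in library 6, while Rps27, a short gene, did not have its lowest level there.

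At the other end lay Rps27l (ENSMUSG00000036781.13, chr9:66946086-66949516), a paralog of Rps27 known as a target of p53. Its B cell levels in libraries 1 to 6 were 246, 199.5, 301.4, 202, 243 and 288 CPM, and its macrophage levels 254, 309, 379.7, 254, 245.5 and 439 CPM. It was lower in B cells within 6 of 6 libraries, although the 2 ranges overlapped, and its log2 ratio was -0.28 (-0.34 to -0.22), short of the 1.5-fold limit. Rps27 itself had 6633 and 1761 CPM, so the 2 paralogs differed in opposite directions between these classes. With the ribosomal protein UMIs taken out of the denominator, Rps27l came out at 0.12.

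Rpl7l1, a paralog of Rpl7, had 69.7 CPM in B cells and 59.6 CPM in macrophages, was higher in 3 libraries and lower in 3, and had a log2 ratio of 0.23 (0.10 to 0.35). Rpl10 is a large-subunit gene of the X chromosome, and its protein joins the ribosome last. It had 1870 to 2138 CPM in B cells and 926 to 1577 in macrophages, a log2 ratio of 0.61 (0.59 to 0.64). Rpl41, the shortest of the proteins at 25 residues, had 0.74 (0.72 to 0.76). These genes stood clear of the bulk: only 9 of the 84 lay more than 1.5-fold from the members' own median ratio, 1 above and 8 below, and 38 lay within 0.25 of it on the log2 scale.

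**Figure D2:**
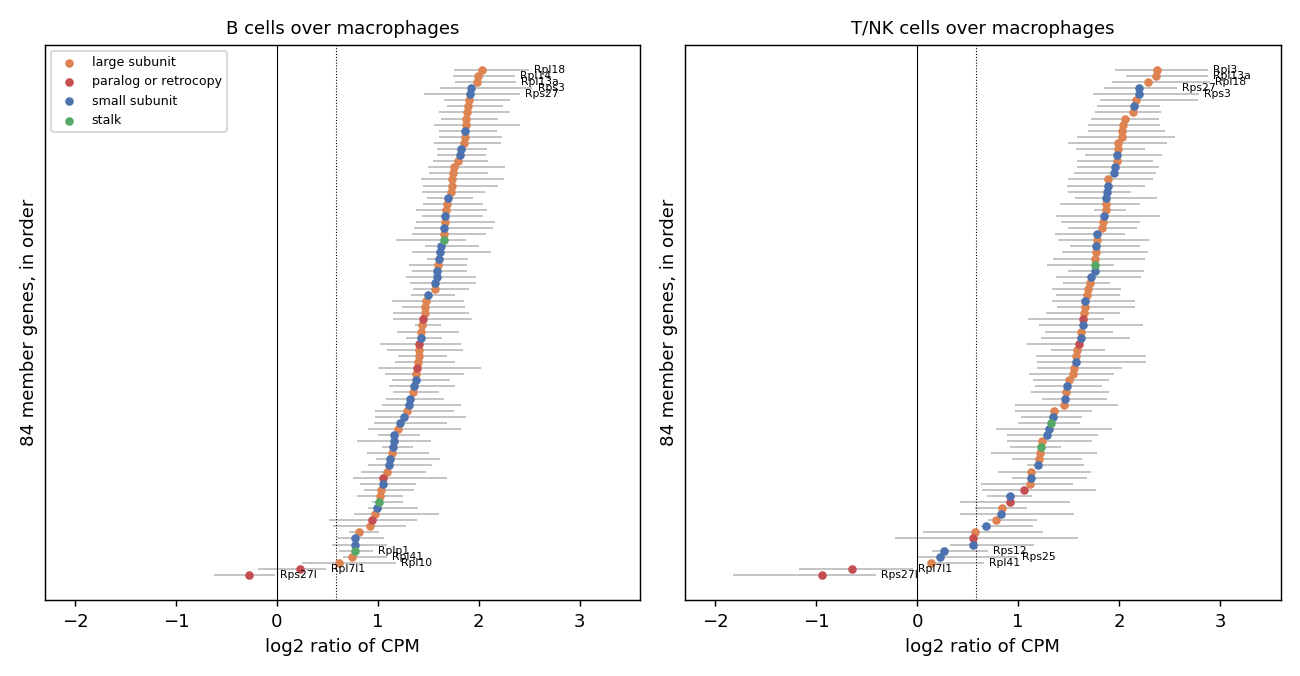
Log2 ratio of CPM of each of the 84 genes, in order, for B cells (left) and T/NK cells (right) over macrophages, coloured by subunit, with the point pooled over libraries, a grey line from the lowest to the highest library number, and a dotted line at 1.5-fold. The 5 highest and 5 lowest genes are named; Rps27l is below 0 on both sides, and Rpl7l1 on the right.

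The other 5 paralogs and retrocopies were at least 1.5-fold higher in B cells. Rpl22l1, a paralog of Rpl22, had 1164 to 1537 CPM in B cells and 324 to 592 in macrophages, a log2 ratio of 1.45 (1.41 to 1.49) in B cells over macrophages. Rpl36al had 0.94 (0.90 to 0.98), and the annotated pseudogenes Rps3a2, Rps3a3 and Rps12l1 had 1.41, 1.39 and 1.05. Since Rps3a2 and Rps3a3 are near copies of Rps3a1, how reads were divided among the 3 is uncertain.

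T/NK cells had 3.01 times the share of macrophages, a log2 ratio of 1.59 (1.58 to 1.59), positive in 6 of 6 libraries (1.28 to 1.86) and 1.55 without library 6. With the 200 cells that passed more than 1 gate kept, the T/NK class had 667 cells and the ratio was 1.42. At least 1.5-fold higher in T/NK cells were 76 of the 84 genes, and 2 were lower by that rule, where 37.3% of 9653 features were higher and 29.9% lower. The members' median was 1.64 and that of all features 0.16. In 74 genes the libraries of the 2 classes did not overlap with T/NK cells above (13.7% of features), and in 2 they did not overlap with T/NK cells below (15.8% of features). Both comparisons use the same macrophages, so likeness between them is not counted as a result.

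The highest ratios of T/NK cells to macrophages were those of Rpl3, at the peptidyl transferase centre, with 2.37 (2.32 to 2.42), Rpl13a with 2.37 (2.32 to 2.41), Rpl18 with 2.29 (2.25 to 2.33), and Rps27 and Rps3, with intervals of 2.17 to 2.23 and 2.16 to 2.24. Rpl3 had 3829.9, 4066, 4016, 3741, 3212 and 1664 CPM in the T/NK cells of libraries 1 to 6, and 986, 874, 547, 699.7, 490.2 and 357 CPM in the macrophages. The libraries did not overlap. Rps27l and Rpl7l1 were the 2 lower genes. Rps27l had 71.7 to 222 CPM in T/NK cells, below its 245.5 to 439 CPM in macrophages in every library, with a log2 ratio of -0.95 (-1.15 to -0.75). Rpl7l1 had only 55 UMIs in T/NK cells, and its ratio of -0.64 (-1.06 to -0.25) was lower in 6 of 6 libraries. Without library 6, and likewise without library 3, 1 gene and not 2 was past the lower limit. It was 0 genes with the cells of more than 1 gate kept, with Fcer1g left out of the macrophage gate, and with ribosomal protein UMIs taken out of the denominator.

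A further 6 genes did not reach 1.5-fold between T/NK cells and macrophages. Rpl41 had a log2 ratio of 0.14 (0.09 to 0.19), Rps25 0.22 (0.13 to 0.32) and Rps12 0.26 (0.22 to 0.30), and Rps12l1 and Rpl10 were among the others. RPS25 is known for its role in internal initiation on viral mRNAs. Rps12, a small-subunit gene, had 3578, 3215, 4174, 4145, 4459.8 and 4993 CPM in the T/NK cells of libraries 1 to 6, and 3126, 2879, 2566, 3737, 3475 and 3394 CPM in the macrophages. Rpl41 was higher in T/NK cells within 6 of 6 libraries (0.17 to 0.66), so its pooled value lies below that range. After thinning to 1500 UMIs, its pooled ratio was -0.19, so its direction is not settled.

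T/NK cells and B cells were close as a whole: the log2 ratio of their shares was 0.14 (0.13 to 0.14), above 0 in 6 of 6 libraries but only between 0.03 and 0.24. It was 0.13 without library 6 and 0.073 without library 3. With the 200 cells that passed more than 1 gate kept it was -0.012. Of these cells, 153 passed the B and T/NK gates and were then counted in both classes, and 47 passed the T/NK and macrophage gates. Counting the same cells on both sides makes the classes more alike, so this alternative cannot decide which had the higher share. At least 1.5-fold higher in T/NK cells was 1 gene of 84 and 5 were lower, where 21.4% and 22.1% of 9544 features were. Without library 6 it was 1 and 4 genes, and without library 2 it was 0 and 5. With the cells of more than 1 gate kept 0 genes were past the limit in either direction, again with cells counted in both classes. Rpl5, which with Rpl11 and 5S rRNA restrains Mdm2, had 1707 to 2261 CPM in T/NK cells and 1185 to 1341 CPM in B cells, without overlap, and a log2 ratio of 0.60 (0.54 to 0.66). Rplp1 followed with 0.55 (0.53 to 0.57), then Rpl3 with 0.47, Rps21 with 0.46 and Rpl12 with 0.43. These are pooled values, and library 3 held 164 of the 467 T/NK cells. Within libraries the median was 0.37 for Rplp1 and 0.35 for Rpl3, below the 0.47 of Rps21, the 0.42 of Rps23 and the 0.39 of Rpl12.

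Among the genes lower in T/NK cells than in B cells were Rpl7l1 with a log2 ratio of -0.87 (-1.29 to -0.48), Rps12 with -0.73 (-0.77 to -0.69), Rps27l with -0.67 (-0.87 to -0.47) and Rpl41 with -0.60 (-0.65 to -0.55). Rps12 in B cells had 6396, 5572, 6744, 7228, 6479.9 and 6953 CPM in libraries 1 to 6, every one above the highest T/NK library at 4993 CPM. Rpl22l1 was lower in T/NK cells within 6 of 6 libraries, with a log2 ratio of -0.39 (-0.46 to -0.31). In 2 genes (Rpl5, Rps23) every T/NK library was above every B cell library and in 3 (Rpl7l1 and Rps12 among them) below, which held for 6.08% and 6.05% of features. In all, 35 genes were higher in T/NK cells within each of the 6 libraries (11.1% of features) and 12 lower (15.3% of features).

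Among B cells, Fcer2a, the gene of the low-affinity IgE receptor CD23 that marks follicular and not peritoneal B-1 cells, split off 154 cells with a UMI from 2794 without. In so sparse a gene many cells without a UMI may express it. Pooled, both groups had medians near each other, 5461 and 5414.5 UMIs, but within libraries depth differed in both directions, with 9188 against 6795 UMIs in library 3 and 3327 against 5546 in library 4. The ribosomal protein share was 32.6% (32.54% to 32.73%) in Fcer2a+ B cells and 33.2% (33.22% to 33.27%) in Fcer2a- B cells. The log2 ratio of -0.03 (-0.03 to -0.02) was below 0 in 6 of 6 libraries, where it lay between -0.08 and -0.01. Of 84 genes, 0 were past 1.5-fold in either direction, where 6.3% of 9231 features were higher and 7.57% lower. The members' median was -0.02 and that of all features 0.01.

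The largest differences by Fcer2a were small. Rps12 had 5792 CPM in Fcer2a+ and 6518 CPM in Fcer2a- B cells, a log2 ratio of -0.17 (-0.21 to -0.13), and was lower in 5 of 6 libraries. Rps3a1 had -0.12 (-0.16 to -0.09) and was lower in 6 of 6. Rpl15, of the large subunit, had 0.11 (0.06 to 0.17). Rps27l had 0.27 (0.09 to 0.44) but was lower in 2 libraries, and Rps12l1 with 53 UMIs and Rpl7l1 with 79 UMIs in Fcer2a+ cells had intervals that include 0. Other extremes were Rps3a3 at -0.10, Rpl31 at 0.11 and Rpl22l1 at 0.10. Lower in 6 of 6 libraries were 6 genes (Rps3a1, Rps19, Rps3, Rpl39 and Rpl32 among them; 3.04% of features) and higher in 6 of 6 was Rpl15 alone (2.03% of features). Thinned to 1500 UMIs, with 39 Fcer2a+ cells left, Rpl15, Rpl22l1 and Rps27l came out at -0.047, -0.38 and -0.23.

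Peritoneal macrophages include a large, Gata6-dependent population and a small one fed by monocytes. By Gata6, Timd4, Prg4 and Selp, 1918 cells were gated as large, and by Ccr2, Irf4, Fcrls and Mgl2, 201 cells as small. Pooled, the share was 12.3% in large and 13.8% in small macrophages, a log2 ratio of 0.17 (0.16 to 0.18). Within each library it was larger, 0.30 to 0.65 and positive in 6 of 6. Of the 201 small macrophages, 81 were in library 6 and 49 in library 3, whose large macrophages had shares of 8.51% and 10.2%, against 10.1% in library 5 and 11.8% to 14.1% in the other 3. Weighting the 6 libraries equally gave 0.39. Within libraries 1 to 6 the small macrophages had 17.4%, 16.6%, 12.7%, 15.2%, 15.9% and 11.3%, and the large ones 14.1%, 13.0%, 10.2%, 11.8%, 10.1% and 8.51%. Libraries 2, 4 and 5 held 12 to 17 small macrophages each. Without library 6 the pooled log2 ratio was 0.24. With a macrophage gate that leaves out Fcer1g, which keeps 45 small macrophages, it was 0.0087. The pooled difference was therefore not seen under every gate, and the parts of gate, cell number and library mix were not tested.

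Pooled, 6 of the 84 genes were at least 1.5-fold higher in small macrophages and 1 was lower, where 24.8% of 8791 features were higher and 20.5% lower. Without library 6 it was 7 and 0 genes, without library 1 it was 11 and 1, and without Fcer1g in the gate 2 and 4. In 7 genes the libraries did not overlap with small macrophages above, and in 0 with them below, which held for 4.21% and 5.88% of features. Within libraries, 58 genes were higher in small macrophages in 6 of 6 (9.96% of features) and 1 gene lower (11.9% of features). Library 5 held only 51625 UMIs of small macrophages, so these shares are not matched to the members in abundance either. Rps27l had the largest ratio, with 439 to 774 CPM in small and 215 to 293 CPM in large macrophages, without overlap, and a log2 ratio of 1.43 (1.29 to 1.56) that ranged from 1.03 to 1.44 by library. Rps29, Rps28, Rpl41 and Rpl39 followed with pooled ratios of 0.91, 0.85, 0.83 and 0.60. Each was higher within 6 of 6 libraries, with within-library medians of 0.65, 0.75, 0.66 and 0.69. These 4 are short genes, which took a larger share in library 6, where many of the small macrophages lay. The part of this in the pooled ratios was not tested.

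The 1 gene lower in small macrophages within every library was Rps19, mutated in Diamond-Blackfan anaemia, with 1245 to 2343 CPM against 1454 to 3031 CPM in large macrophages. Its pooled log2 ratio was -0.60 (-0.67 to -0.53) and its within-library range -0.49 to -0.15, so the pooled value lies outside that range. Rpl22l1, Rpl5 and Rpl17 had pooled ratios of -0.58, -0.39 and -0.32 but were lower in only 4, 3 and 3 of 6 libraries.

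**Figure D3:**
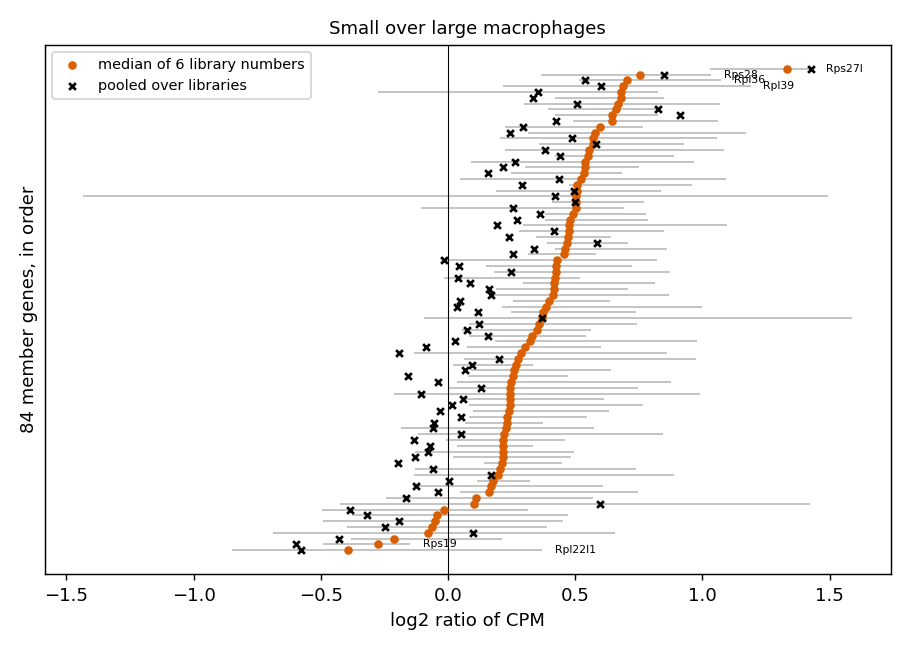
Log2 ratio of CPM of small over large macrophages for the 84 genes, in order of the median over the 6 library numbers (circles), with a grey line from the lowest to the highest library and crosses for cells pooled over libraries. In 75 of 84 genes the cross lies to the left of its circle, and Rps27l is farthest right at a pooled 1.43.

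The make-up of the ribosomal protein UMIs also differed by library. The 10 genes with at most 300 coding bases (Rpl41, Rpl39, Rps29, Rps28, Rpl38, Rps21, Rps27, Rps27l, Rpl37a and Rpl37) took 21.2% of ribosomal protein UMIs in the B cells of library 6. In libraries 1 to 5 they took 10.2%, 9.67%, 12.3%, 12.8% and 16.1%. In T/NK cells the values for libraries 1 to 6 were 10.6%, 9.86%, 12.1%, 12.6%, 16.2% and 21.3%, and in macrophages 11.3%, 11.3%, 14.8%, 13.3%, 17.9% and 23.2%. Libraries 5 and 6 were highest in all 3 classes, while library 3 was below library 4 in B cells and T/NK cells and above it in macrophages. The 23 genes with over 600 coding bases took 21.5%, 21.1% and 20.9% of ribosomal protein UMIs in library 6, against 25.3% to 29.6%, 24.9% to 28.7% and 23.5% to 26.9% in the other 5. These length limits were set after the values were seen.

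Rps29, a zinc-binding protein of the small subunit, shows the size of it. Its B cell levels in libraries 1 to 6 were 2457, 2412, 2838, 3676, 5589 and 8708 CPM, its T/NK levels 2436, 2621, 2965, 3669, 5539 and 9521 CPM, and its macrophage levels 1577, 1596, 1695, 1763, 2739 and 4298 CPM. Rpl41 in B cells had 2713, 2065, 3765, 3253, 4113 and 6906 CPM. The long gene Rpl3 had its lowest share of ribosomal protein UMIs in library 6 in all 3 classes. Over the 81 protein-coding members, coding length and the log2 ratio of the gene's share of ribosomal protein UMIs in library 6 to that in the other 5 gave a Spearman's rho of -0.59 in B cells, -0.55 in T/NK cells and -0.49 in macrophages. Over 1983 to 2363 other genes with at least 50 CPM, rho of the same ratio over all UMIs was 0.34, 0.14 and 0.04. These are correlations across genes of the same libraries, which are not independent points. Library 5 gave -0.63, -0.51 and -0.44, and libraries 1 and 2 had the other sign, at 0.53, 0.37 and 0.46 and at 0.89, 0.84 and 0.54. Over the 6 libraries and 3 classes, rho of the other genes lay between -0.38 and 0.41.

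**Figure D4:**
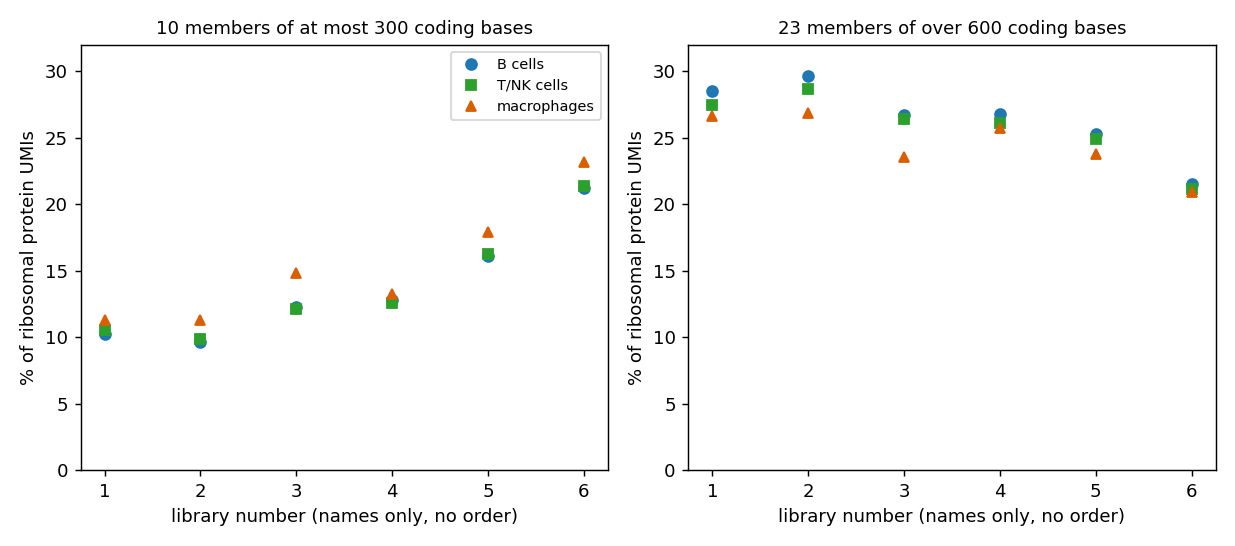
Percent of ribosomal protein UMIs from the 10 shortest coding sequences (left) and from the 23 longest (right), by library number, with 1 symbol per cell class and axes from 0. In library 6 the short genes reach 21.2% to 23.2% and the long genes 20.9% to 21.5% in the 3 classes; the numbers on the horizontal axis are names, not an order.

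The retrocopies of Rps3a1 followed another order. Rps3a3 had its lowest share of ribosomal protein UMIs in library 4 and its highest in library 2 in all 3 classes: 0.0825% and 0.370% in B cells, 0.0647% and 0.365% in T/NK cells, and 0.0749% and 0.429% in macrophages. Rps3a2 had the same lowest and highest library in each class. Rps12l1 was highest in library 6, with 0.0538% in B cells. Across the 6 libraries, 52 of the 84 genes in B cells, 48 in T/NK cells and 41 in macrophages kept their share of ribosomal protein UMIs within 1.5-fold, and 10, 14 and 14 ranged by 2-fold or more.

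Pseudogene rows can take reads from their parent genes. The table had 300 rows of ribosomal protein genes with a -ps symbol, 194 of them with a UMI, and they held 2.71% of all UMIs. Pseudogenes with other symbols were not counted here, so these values cover only part of the pseudogene rows. In 38 genes they summed to at least 1000 UMIs, and for Rpl17, Rpl9 and Rpl35a they held more UMIs than the gene itself (68.0%, 59.9% and 57.6% of the sum). Adding them moved the log2 ratio of B cells over macrophages by at most 0.27 for any gene, and all 38 sums were still at least 1.5-fold higher in B cells. With these rows, the class shares were 36.8%, 40.6% and 13.3%.

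Other genes of translation were taken as lists, which share some genes, and were compared by the same rule. Over all features tested, 33.9% were higher in B cells than in macrophages and 26.8% lower. In B cells over macrophages, 53 of 78 mitochondrial ribosomal protein genes were at least 1.5-fold higher and 0 lower, with a median log2 ratio of 0.77, between the medians of the cytosolic set and of all features. The highest was Mrps35 at 1.81 and the lowest Mrpl33 at -0.22. All 8 genes of elongation factors and their partners that were tested were higher (median 1.29), from Eef2kmt at 0.73 to Eef1d at 2.12. Of 17 other genes with TOP mRNAs, 15 were higher (median 1.28), from Tpt1 at -0.11 to Eif3f at 1.60. Of 52 genes with Eif symbols, which include initiation factors and their regulators, 18 were higher and 4 lower, from Eif3i at 2.25 to Eif4e3 at -2.55. The 18 are near the share of all features that were higher. Fau, whose product includes a small-subunit protein, and Rack1, a scaffold on the small subunit, do not match the symbol rule and had 7695 and 1654 CPM in B cells against 3163 and 816 CPM in macrophages.

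Of 47 ribosome biogenesis genes, 36 were higher in B cells than in macrophages and 1 lower (median 1.14), from Dkc1, the pseudouridine synthase, at 2.35 to Eif6 at -0.60. Between T/NK cells and macrophages 10 were higher in T/NK cells and 6 lower (median 0.07), with Npm1 at 1.57 and Eif6 at -1.31. In T/NK cells over B cells 0 were higher and 36 lower (median -0.88), with Nop2 at -1.97. Over all features tested, 33.9%, 37.3% and 21.4% were higher in these comparisons, in order, and 26.8%, 29.9% and 22.1% lower. Thinning to 1500 UMIs left 1164 B cells and 2005 macrophages, and 14 biogenesis genes were then higher in B cells than in macrophages and 3 lower. When cells that passed more than 1 gate were kept, 32 were higher in T/NK cells than in macrophages and 1 lower. The share of all features was not computed under either alternative, so these counts cannot be set against it.

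The remaining lists in T/NK cells over macrophages stood as follows, where 37.3% of all features were higher and 29.9% lower. The Eif and control counts lie near or under those shares. Mitochondrial ribosomal protein genes were higher in 35 of 78 and lower in 3 (median 0.54), from Mrps35 at 2.21 to Mrpl3 at -0.89. Elongation factors were higher in 7 of 8, with Eef1d at 2.45 and Eef1e1 at -0.27, and other TOP genes in 14 of 17, from Eef2 at 2.07 to Nap1l1 at 0.29. Eif genes were higher in 14 of 52 and lower in 14, from Eif3m at 2.07 to Eif4a1, the helicase that opens mRNA leaders, at -1.77. Of 23 genes that control translation or the growth of ribosomes, 7 were higher and 7 lower, with Pdcd4, an inhibitor of that helicase, at 3.70 and the translation repressor Eif4ebp1 at -1.71. In B cells over macrophages the same 23 gave 6 higher and 2 lower, from Myc, a driver of ribosome synthesis, at 2.46 to Rictor at -0.74. There, 33.9% of all features were higher and 26.8% lower.

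**Figure D5:**
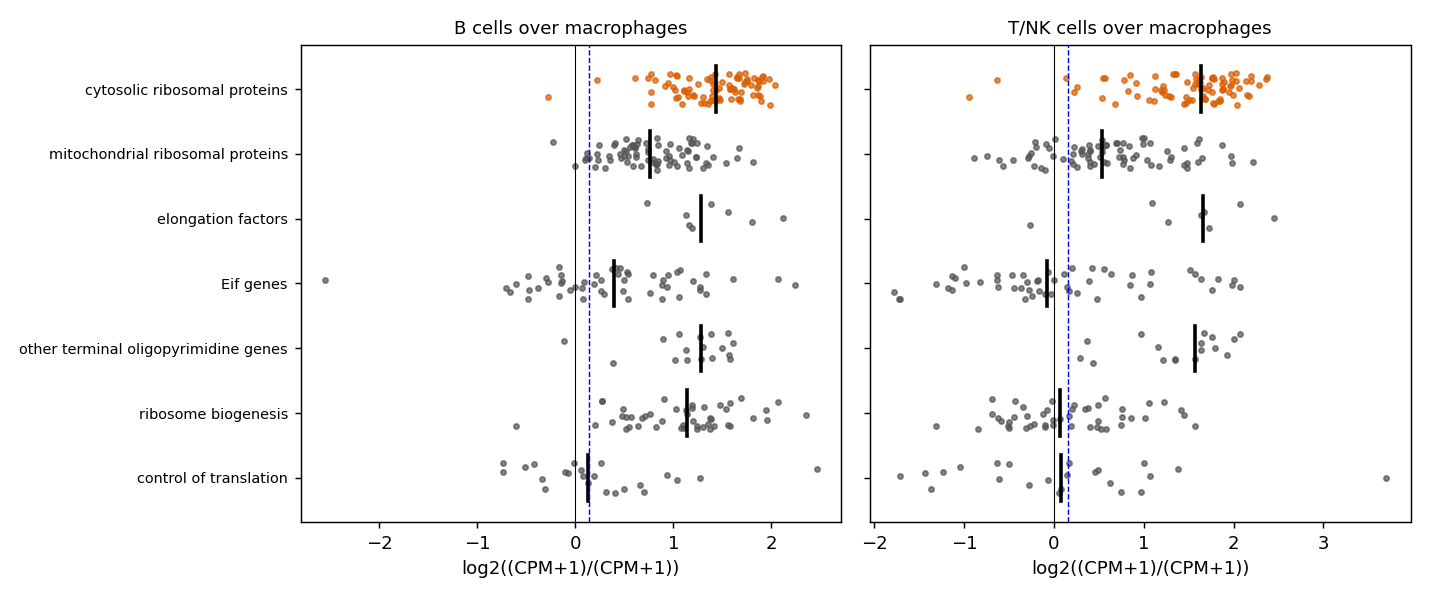
Log2((CPM + 1)/(CPM + 1)) of each gene (dots) and list median (black bars) for the 84 ribosomal protein genes and 6 lists of translation genes, B cells (left) and T/NK cells (right) over macrophages, with a dashed line at the median of all features tested. The cytosolic set has medians of 1.44 and 1.64; the biogenesis list has 1.14 on the left and 0.07 on the right.

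Between Fcer2a+ and Fcer2a- B cells, of 47 biogenesis genes 9 were at least 1.5-fold higher in Fcer2a+ B cells and 0 lower (median 0.38), with Wdr12 at 1.04, and Myc had 0.95, with 211 CPM against 108 CPM. Over all features 6.3% were higher and 7.57% lower, and the difference between the lists was not tested. In small over large macrophages, 21 of 47 biogenesis genes and 31 of 78 mitochondrial ribosomal protein genes were higher and 0 and 1 lower, with medians of 0.51 and 0.48, where 24.8% of all features were higher and 20.5% lower. Ddx18 had 1.58 and Mrps22 1.32. In that comparison 2 of 8 elongation, 3 of 17 other TOP, 10 of 52 Eif and 4 of 23 control genes were higher and 1, 0, 5 and 4 lower. In T/NK cells over B cells 3 mitochondrial, 1 elongation, 2 other TOP, 4 Eif and 4 control genes were higher. In the same order 15, 1, 1, 19 and 9 were lower, where 21.4% of all features were higher and 22.1% lower. By Fcer2a 1, 0, 0, 2 and 3 were higher and 1, 0, 0, 0 and 0 lower.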

How the data were processed

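The 6 libraries of peritoneal cells were made with a droplet kit that reads the 5′ end of each mRNA. The authors aligned reads to human and mouse genomes (mm10) with Cell Ranger, used the mouse reads, and deposited 1 table of raw counts (UMIs), genes by cells, for all libraries; the submitters' processing notes name Cell Ranger 2.2 and Seurat 3.0, and the study's methods another Cell Ranger release. The annotation counted on is not given in the sources used here. Every per-cell column was used, 0 left aside.

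From these counts, cells were kept (7665 of 7760) where 500 or more genes were seen, mitochondrial UMIs did not exceed 10% and log genes divided by log UMIs reached 0.8; the study's methods word the last limit as UMIs per gene, and the log form is the reading used here. Cells passing 1 of the 3 gates were summed per class; 200 cells in more than 1 gate were left out, and no doublet caller was run. CPM scales the gene's UMIs to the total of the class. Ratios of single genes and of sums are ratios of CPM; calls and lists use log2(CPM + 1), 1.5-fold, over features with a mean of at least 5 CPM. Share intervals are Clopper-Pearson, ratio intervals exact conditional binomial, at 95%. The steps were tested on simulated data. Python 3.11.15, numpy 2.4.6, scipy 1.17.1, pandas 2.3.3 and matplotlib 3.10.9 were used.

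The members, lists and alternatives were chosen with earlier results of these data known. Named genes are, per comparison, the 5 highest and 5 lowest members, the 5 with the most UMIs (Rps24, Rplp1, Rpl13, Rps20, Rpl23), the paralogs, the 5 whose share of ribosomal protein UMIs ranged most over libraries, Fau, Rack1, and the ends of each list; Rps29, Rpl3 and the extra genes of the length comparison illustrate it. Some genes that this rule names are not reported here. Alternatives changed the cell filter, gates, denominator, weighting, depth, fold limit and feature filter, and left out each library. Protein sequences and the planned comparison of paralog proteins are not used here.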

Additional observations from a re-analysis of the deposited data

Results flagged for a closer look

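Outside the 3 classes, 1277 kept cells passed no gate. Their ribosomal protein share was 27.8%, with a median of 2735 UMIs per cell, and they were marked because no comparison above uses them. A further 200 kept cells passed more than 1 gate, 153 the B and T/NK gates and 47 the T/NK and macrophage gates. Their share was 30.3%, with a median of 9604.5 UMIs per cell, above the medians of all 3 classes.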

How the results depend on the processing

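Lymphocytes stayed above macrophages in ribosomal protein share in every alternative run; the values of B cell, T/NK cell and macrophage shares, then the log2 ratios of B cells over macrophages, T/NK cells over macrophages, Fcer2a+ over Fcer2a- B cells and small over large macrophages, are given in that order below. Depth and gate limit the small groups most: thinning left 39 Fcer2a+ B cells and 71 small macrophages. The share of all features past the limit was computed for the main setting only. Counts of genes under the alternatives have no such share beside them and are not read as results about those genes. No paired analysis was possible because no genotype or treatment has a second library and the library numbers carry no label; cell classes were compared within each library number, and those ratios stand in the report.

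With cells kept in every gate they passed, T/NK cells and macrophages had 32.9% and 12.3%, and the ratios were 1.43, 1.42 and, for small over large, 0.19. Then 0 members were lower in T/NK cells than in macrophages, 0 mitochondrial, 6 Eif and 2 control genes were lower, and 32 biogenesis genes were higher and 1 lower. Without Fcer1g in the gate the values were 35.2% and 12.3%, 1.44 and 1.52, and 0.0087 for small over large, with 0 members and 3 biogenesis genes lower in T/NK cells. Relative to UMIs outside the members, the values were 49.7%, 57.5%, 13.8%, 1.85, 2.06, -0.040 and 0.19, and Rps27l in B cells over macrophages turned to 0.12. Taking the members out of the total raises every gene's ratio of lymphocytes to macrophages, and the following counts include this shift. In B cells 31 Eif genes were then higher and 1 lower, 10 control genes higher and 0 lower, and 0 biogenesis genes lower. Against macrophages, 0 members were lower in T/NK cells, 60 mitochondrial genes higher and 0 lower, 8 Eif genes lower, and 23 biogenesis genes higher and 1 lower. Without mitochondrial and immunoglobulin UMIs the values were 34.5%, 37.7%, 12.4%, 1.47 and 1.60, with 0 biogenesis genes lower in B cells.

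With libraries weighted equally they were 32.7%, 35.3%, 11.5%, 1.51, 1.62, -0.035 and 0.39, with 0 control genes lower in B cells and 3 biogenesis genes lower in T/NK cells, and Rpl17 in small over large macrophages turned to 0.0069. Thinned to 1500 UMIs they were 33.8%, 35.1%, 11.5%, 1.55, 1.61, -0.078 and 0.24. In B cells over macrophages 1 member, 1 mitochondrial, 15 Eif, 3 biogenesis and 8 control genes were then lower and 14 biogenesis genes higher. Lower in T/NK cells were 5 mitochondrial and 13 biogenesis genes, and by Fcer2a 1 member was lower. Thinning turned Rpl7l1 in B cells over macrophages to -0.37, Rpl41 in T/NK cells over macrophages to -0.19, and Rpl22l1, Rpl15 and Rps27l by Fcer2a to -0.38, -0.047 and -0.23. Without the deepest 5% of cells the T/NK and macrophage shares were 36.9% and 11.9% and the ratios 1.48, 1.63, -0.033 and 0.15, with 6 mitochondrial, 1 elongation and 15 biogenesis genes lower in T/NK cells, and Rpl41 there at -0.0019. Past a 2-fold limit 0 members were lower in T/NK cells. Around the members' own median, 1 was higher and 8 lower in B cells, and 3 and 14 in T/NK cells. The causes were not tested.

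For T/NK cells over B cells, tried under alternatives after the data were seen, the share ratio was -0.012 with cells kept in every gate, 0.083 without Fcer1g, 0.21 outside the members, 0.13 without mitochondrial and immunoglobulin UMIs, 0.11 with equal libraries, 0.057 thinned, 0.15 without the deepest cells, 0.14 with pseudogene rows, 0.12 as the mean of cells and 0.073 to 0.16 without each library. In that order up to the deepest cells, genes higher numbered 0, 0, 2, 1, 1, 0 and 1 and genes lower 0, 4, 3, 5, 3, 3 and 6. For small over large macrophages, also added, they numbered 6, 2, 8, 5, 13, 9 and 6 higher and 0, 4, 0, 1, 0, 2 and 2 lower. Past 2-fold, 0 genes differed between T/NK cells and B cells and 1 was higher and 0 lower in small macrophages; around the median, 0 and 7, and 4 and 2. Without each library, 0 to 2 and 4 to 5 genes were higher and lower in T/NK cells, and 5 to 11 and 0 to 2 in small macrophages.

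Chosen after seeing the data, adding the pseudogene rows gave 36.8%, 40.6%, 13.3%, 1.47 and 1.61, and the mean over cells 33.2%, 36.0%, 11.4%, 1.54, 1.66, -0.048 and 0.21. Leaving out each library in turn gave shares of 32.55% to 33.68%, 34.9% to 37.15% and 11.2% to 12.5%, and ratios of 1.41 to 1.56, 1.51 to 1.73, -0.033 to -0.024 and 0.13 to 0.24. Members higher numbered 81 to 82 in B cells and 76 to 78 in T/NK cells, and those lower 0 and 1 to 2. In the order mitochondrial, elongation, Eif, other TOP, biogenesis and control, genes higher in B cells numbered 47 to 57, 8, 18 to 19, 15, 34 to 40 and 6 to 7, and those lower 0, 0, 3 to 5, 0, 0 to 1 and 1 to 2. Genes higher in T/NK cells numbered 34 to 44, 7, 12 to 17, 14, 10 to 14 and 6 to 8, and those lower 1 to 4, 0, 12 to 14, 0, 4 to 11 and 5 to 9. By Fcer2a 0 members passed the limit without any library. Of 700 values of single genes under alternatives, 457 moved by less than their counting interval, 235 by more, and 8 turned.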

Other observations

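The 5 genes with the most UMIs show how one class can differ over members that all count among the most abundant. Rps24, a small-subunit gene, had 8930 to 12264 CPM in B cells by library, 9543 to 15443 CPM in T/NK cells and 2416 to 4685 CPM in macrophages, without overlap of lymphocytes and macrophages. In B cells over macrophages, Rps24, Rpl13, Rps20 and Rpl23 had log2 ratios of 1.58, 1.90, 1.42 and 1.20, and in T/NK cells 1.88, 1.83, 1.35 and 1.24. Rplp1 had 0.77 and 1.32. In T/NK cells its levels in libraries 1 to 6 were 12746, 12178, 14275, 9697, 8886 and 8611 CPM, with libraries 1, 2 and 3 above every other, while in B cells they were 8732, 7945, 9048, 8813, 7784 and 7886 CPM.

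The Cd3+ cells without Nkg7 (382 cells) had a ribosomal protein share of 36.8%. Only 3 cells had at least 2 Nkg7 UMIs and no Cd3d or Cd3e, too few for a comparison of NK cells.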
